A study of Mus musculus with 8 samples.

Results

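The neutrophil-attracting and platelet CXC chemokines are 6 neighbouring mouse genes, Cxcl1, Cxcl2, Cxcl3, Cxcl5, Ppbp and Pf4, described here in cultured peritoneal macrophages. They were chosen by name, as the family members of this cluster that are known as neutrophil attractants or platelet chemokines, and are 6 of the 24339 genes listed. RNA was sequenced from these resident phagocytes of the abdominal cavity in C57BL/6 mice that lacked the α7 nicotinic acetylcholine receptor (α7nAChR-/-, the knockout, encoded by Chrna7) or were wild type. Plated cells were washed after 1 h, kept until the next day, and given nicotine at 10 µM or its vehicle for 15 min, followed by lipopolysaccharide (LPS, an endotoxin of Gram-negative bacteria and the ligand of Toll-like receptor 4) at 100 ng/ml or its vehicle for 4 h. In each genotype the groups were nicotine with LPS, LPS alone, nicotine alone and vehicle alone, which makes 8 groups of 1 library each. No group had a replicate, and nothing in the labels tells how many animals or cell preparations lie behind the 4 libraries of a genotype, so an effect of genotype and an effect of preparation cannot be told apart. Values are FPKM, fragments scaled by transcript length and library size, which is meant to let levels be set side by side between genes. Some estimates may have failed, as for Gapdh below, so ranks and ratios between genes describe the listed values only. Differences were tested with limma across all genes on log2(FPKM + 1), a scale that understates changes of low genes, and a gene was called at a Benjamini-Hochberg adjusted p under 0.05. With 1 library a group, the spread behind each p-value is the departure of these 8 libraries from the fitted model, not a spread between replicates. For average effects that departure includes any difference between the LPS effects with and without nicotine.

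CXC chemokines are small secreted proteins that guide leukocytes along a concentration gradient. Cxcl1, Cxcl2, Cxcl3 and Cxcl5 act on the receptor Cxcr2, which draws neutrophils out of the blood, and Ppbp (pro-platelet basic protein) is cut into a peptide that acts on the same receptor. Pf4 (platelet factor 4) is stored in platelet granules, binds heparin-like sugars and lacks the amino acid motif needed for Cxcr2, and macrophages are a known further source. In macrophages, LPS is known to act on the attractant genes through the transcription factor NF-kB, and their mRNAs are known to be short-lived through AU-rich elements in the 3′ untranslated region (UTR).

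The 6 genes lie on chromosome 5 within 147 kb (90759360 to 90905938, GRCm38, GENCODE release M21), all on the plus strand, in the order Cxcl5, Ppbp, Pf4, Cxcl3, Cxcl1, Cxcl2. Cxcl15, a family member between Cxcl3 and Cxcl1, was listed at 0 FPKM in all 8 libraries. The 150 bases before the start are shown for the 5 members in RefSeq's promoter table (GRCm38.p6), because Cxcl1, Cxcl2 and Cxcl3, the 3 of the 6 with the largest average change with LPS, share a run of bases there. Capitals mark the longest run that these 3 have in common before the start, the 11 bases GGGAATTTCCC, which has the form of an NF-kB (kB) site, and the TATA box TATAAA.
Cxcl1, chr5:90891095-90891244, plus strand: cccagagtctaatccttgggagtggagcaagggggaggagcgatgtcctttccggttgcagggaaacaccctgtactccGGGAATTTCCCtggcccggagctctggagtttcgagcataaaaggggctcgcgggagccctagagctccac
Cxcl2, chr5:90903749-90903898, plus strand: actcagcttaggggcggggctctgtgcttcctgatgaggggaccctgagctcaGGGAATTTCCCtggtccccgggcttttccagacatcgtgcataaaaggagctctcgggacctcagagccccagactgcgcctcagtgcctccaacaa
Cxcl3, chr5:90785951-90786100, plus strand: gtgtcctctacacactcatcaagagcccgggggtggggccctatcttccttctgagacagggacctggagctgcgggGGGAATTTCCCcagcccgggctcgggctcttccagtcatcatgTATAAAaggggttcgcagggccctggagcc
Ppbp, chr5:90768368-90768517, plus strand: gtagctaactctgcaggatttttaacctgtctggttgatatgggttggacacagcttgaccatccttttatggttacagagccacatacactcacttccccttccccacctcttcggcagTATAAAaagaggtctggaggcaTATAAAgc
Pf4, chr5:90772285-90772434, plus strand: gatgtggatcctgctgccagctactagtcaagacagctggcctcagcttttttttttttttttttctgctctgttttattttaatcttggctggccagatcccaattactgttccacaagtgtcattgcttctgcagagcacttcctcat

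The run GGGAATTTCCC (GGGAAATTCCC on the other strand) stood at -71 to -61 from the RefSeq start of Cxcl1, at -97 to -87 in Cxcl2 and at -73 to -63 in Cxcl3. In GENCODE, Cxcl1 starts at 90891241 and Cxcl2 at 90903871, inside the stretches printed above. The distances, and which printed bases come before the start, thus depend on the annotation. In windows from 250 bases before to 50 after the RefSeq start the run occurred in 14 of 32851 RefSeq promoters (0.0426%), these 3 among them. It was picked as what the 3 genes share, so its rarity is a description. These letters were not in the windows of Ppbp and Pf4. The TATA box letters, searched on both strands and present in 13.6% of windows, stood at -30 to -25 in Cxcl3 and in Ppbp, and again at -8 to -3 in Ppbp. Only exact TATAAA was searched. Apart from GGGAATTTCCC, Cxcl1, Cxcl2 and Cxcl3 shared the 8 bases ATAAAAGG before the start. In Cxcl3 these overlap TATAAA, and in Cxcl1 and Cxcl2 the letters at the same place are CATAAA. Binding of NF-kB was not measured, and a match is a description of the letters only.

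The coding sequences of Cxcl2 and Cxcl3 were 89.7% identical (269 of 300 aligned columns), those of Cxcl1 and Cxcl2 76.0% and those of Cxcl1 and Cxcl3 72.7%, and every other pair of members was 51.2% to 59.3% identical. Stretches of 50 bases found in both Cxcl2 and Cxcl3 made up 5.75% of such stretches in the Cxcl2 transcript and 6.31% in the Cxcl3 transcript, so the counting could have split reads there between these paralogs. Cxcl1, Ppbp and Pf4 shared no such stretch with another gene, and Cxcl5 shared 0.871% of its own. In the 3′ UTR the AU-rich core ATTTA was found 11 times in Cxcl2, 7 times in Cxcl1, 5 times each in Cxcl3 and Cxcl5, and 1 time each in Ppbp and Pf4, and the median of 19652 genes with a 3′ UTR was 1. As many ATTTA cores as in Cxcl2 were found in 4.66% of genes, and as many as in Cxcl1 in 11.6%. The longer element TTATTTATT was found 4 times in Cxcl2, 2 times in Cxcl1 and 1 time in Cxcl3, and at least 1 time in 6.77% of genes. Cxcl5, Ppbp and Pf4 had none.

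All 10 macrophage markers looked up were above 0, and their FPKM summed to 19340 to 30742 in knockout libraries and 24757 to 34575 in wild type. Lyz2 alone made up most of each sum, at 17576 to 28713 FPKM in knockout and 23023 to 32448 FPKM in wild type libraries. In each treatment Gata6 was lower in the knockout (0.814 to 4.84 against 2.30 to 15.7 FPKM), as were Cd68 and, with LPS only just, Lyz2 (23020 against 23023 FPKM). Timd4 was higher in the knockout in each treatment (78.3 to 222 against 20.3 to 108 FPKM), as were Itgam and Fcgr1. The FPKM of all genes summed to 413052 to 854016 per library, and the depth was not given in counts. No library, wild type or knockout, had Chrna7 above 0 FPKM, so its level did not check the genotype labels. The glycolytic enzyme gene Gapdh, normally abundant in all cells, had only 1.34 to 8.90 FPKM, so low values and 0s here may be failed estimates. Summed mast cell markers were 638 FPKM in the knockout and 819 FPKM in wild type with nicotine and LPS, 403 and 471 FPKM with LPS, 324 and 425 FPKM with nicotine, and 165 and 219 FPKM with vehicle, and 8 of these 9 markers were at 1 FPKM or above in every library. Most of the rise of this sum from vehicle to LPS was 1 gene, Hdc. It was at 184 FPKM in the knockout and 171 FPKM in wild type with LPS, against 1.66 and 2.64 FPKM with vehicle. Mesothelial and fibroblast markers summed to 1.07 to 2.89 FPKM in knockout libraries and 1.79 to 20.1 FPKM in wild type, the highest value being that of wild type with nicotine and LPS. B and T cell markers summed to 158 to 345 FPKM in knockout and 198 to 289.8 FPKM in wild type libraries. The part of these cells in the results below was not tested, and in bulk RNA fewer cells of a type and less RNA per cell cannot be told apart.

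LPS alone raised all 4 neutrophil attractants, and Cxcl1 and Cxcl2 then ranked among the 36 most abundant genes by FPKM in both genotypes. Cxcl1, a principal attractant of neutrophils in mice, was listed at 2583 FPKM with LPS and 6.14 FPKM with vehicle in the knockout, and at 8755 FPKM with LPS and 3.66 FPKM with vehicle in wild type. Cxcl2, its close relative known as macrophage inflammatory protein 2, was listed at 6526 FPKM with LPS and 43.2 FPKM with vehicle in the knockout, and at 11139.8 FPKM with LPS and 10.3 FPKM with vehicle in wild type. In both genotypes every LPS value of these genes lay above every vehicle value, and by FPKM Cxcl2 stood at rank 13 of all genes in the knockout and at rank 9 in wild type with LPS. Cxcl3, another ligand of Cxcr2, was listed at 990.1 FPKM with LPS and 87.7 FPKM with vehicle in the knockout, and at 2188 FPKM with LPS and 5.74 FPKM with vehicle in wild type. Cxcl5, best known as an epithelial attractant of neutrophils, was listed at 34.5 FPKM with LPS and 1.70 FPKM with vehicle in the knockout, and at 11.5 FPKM with LPS and 0.107 FPKM with vehicle in wild type. Cxcl5 was thus the least abundant attractant in either LPS library.

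Averaged over genotypes, LPS against vehicle raised Cxcl1 by 9.69 ± 0.48 on the log2 scale (SE, limma adjusted p = 6.3e-05), Cxcl2 by 8.58 ± 0.63 (adjusted p = 0.000153), Cxcl3 by 5.91 ± 1.12 (adjusted p = 0.00435) and Cxcl5 by 3.61 ± 0.31 (adjusted p = 0.00024). The platelet chemokines changed less, Pf4 being higher by 1.09 ± 0.29 (adjusted p = 0.017) and Ppbp lower, with a log2 change of -0.60 ± 0.15 (adjusted p = 0.0129). Of the 6 genes 5 were called higher and 1 lower, against 32.7% higher and 26.4% lower of the 10447 genes tested, and the members' median log2 change was 4.76 beside 0.08 for all genes tested. The 4 attractants kept their calls under all 17 alternatives, although the value of Cxcl3 was 3.60 without the wild type LPS library and that of Cxcl5 was 2.13 with a pseudocount of 5. The call of Pf4 ended without the wild type vehicle library (0.92, adjusted p = 0.106), its value was 0.58 without the wild type LPS library, and it was 0.14 with equal FPKM sums and -0.047 with quantile scaling. Equal FPKM sums shifted the median of all genes by -0.73 in this comparison. The call of Ppbp ended without the wild type vehicle (adjusted p = 0.103), wild type LPS (adjusted p = 0.0575) or knockout vehicle library (adjusted p = 0.0556), and its log2 change was -1.36 with equal FPKM sums and -0.34 with a pseudocount of 5.

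In plain ratios of the libraries, LPS over vehicle was 421-fold in the knockout and 2391-fold in wild type for Cxcl1, 151-fold and 1085-fold for Cxcl2, and 11.3-fold and 381-fold for Cxcl3. For Cxcl5 it was 20.3-fold in the knockout, above that of Cxcl3, and 108-fold in wild type. The ratio was smaller in the knockout for each attractant, and the knockout vehicle level was higher for each. No replicate stands behind these single ratios. The difference between genotypes in the LPS effect passed the test for none of the 6 genes (limma adjusted p of 0.541 to 0.868, with 1 residual degree of freedom). It was -2.45 ± 1.17 on the log2 scale for Cxcl3 (adjusted p = 0.571) and -0.77 ± 0.22 for Pf4 (adjusted p = 0.541). For Cxcl5 it was above 0, at 0.64 ± 0.29. Over all 10447 genes 0% were called in this comparison, and 955 genes had an unadjusted p under 0.05.

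**Figure D1:**
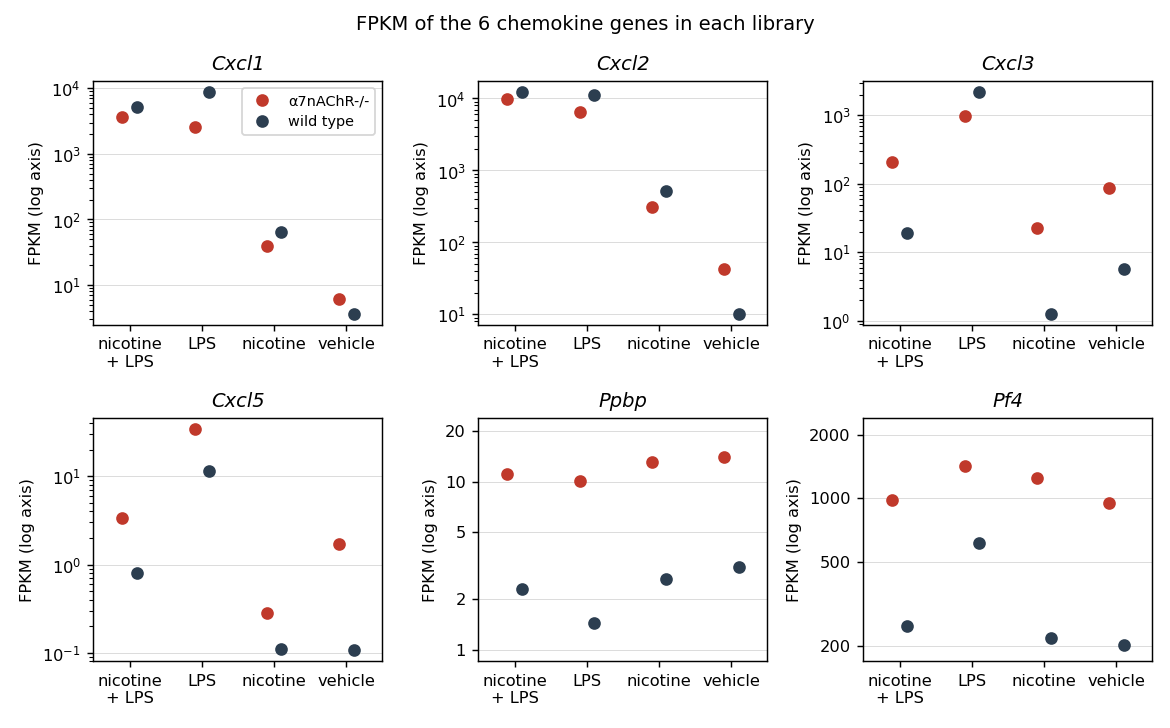
FPKM of the 6 genes (log axis, 1 panel a gene) in the 8 libraries, each point 1 library, with the knockout left of wild type in each treatment. Cxcl1 and Cxcl2 were high with LPS whether or not nicotine was given, Cxcl3 and Cxcl5 were highest with LPS alone, and every knockout value of Ppbp and Pf4 lay above every wild type value.

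Nicotine without LPS raised Cxcl1 and Cxcl2 and none of the other members. Cxcl1 was listed at 38.9 FPKM with nicotine and 6.14 FPKM with vehicle in the knockout, and at 63.5 FPKM with nicotine and 3.66 FPKM with vehicle in wild type. Cxcl2 was listed at 309.5 FPKM with nicotine and 43.2 FPKM with vehicle in the knockout, and at 511 FPKM with nicotine and 10.3 FPKM with vehicle in wild type. The nicotine value lay above the vehicle value in both genotypes, by 6.33-fold in the knockout and 17.3-fold in wild type for Cxcl1, and by 7.17-fold and 49.8-fold for Cxcl2. Averaged over genotypes, Cxcl1 rose by 3.14 ± 0.48 on the log2 scale (SE, limma adjusted p = 0.00229) and Cxcl2 by 4.16 ± 0.63 (adjusted p = 0.00227). With nicotine alone Cxcl2 ranked 250 among all genes in the knockout and 146 in wild type, against rank 1378 and rank 5000 with vehicle.

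Cxcl3 was listed at 23.0 FPKM with nicotine and 87.7 FPKM with vehicle in the knockout, and at 1.28 FPKM with nicotine and 5.74 FPKM with vehicle in wild type. These values were 3.81 times lower with nicotine in the knockout and 4.50 times lower in wild type, but the average log2 change of -1.73 ± 1.12 did not pass the test (limma adjusted p = 0.227). It passed without the wild type LPS or the knockout LPS library (adjusted p = 0.000508 and 0.000494), with the same value. Cxcl5 was at 0.282 FPKM with nicotine and 1.70 FPKM with vehicle in the knockout, and at 0.109 FPKM with nicotine and 0.107 FPKM with vehicle in wild type (-0.53 ± 0.31, adjusted p = 0.186, and -1.11 with an adjusted p of 0.0148 without the wild type nicotine library). Pf4 (0.26, adjusted p = 0.48) and Ppbp (-0.13, adjusted p = 0.476) did not pass either. With 2 of the 6 genes called higher and 0 lower, against 30.1% and 26.0% of all genes tested, the share is near the background. The members' median log2 change was 0.06, beside 0.03 for all genes tested. The calls of Cxcl1 and Cxcl2 held under all 17 alternatives.

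**Figure D2:**
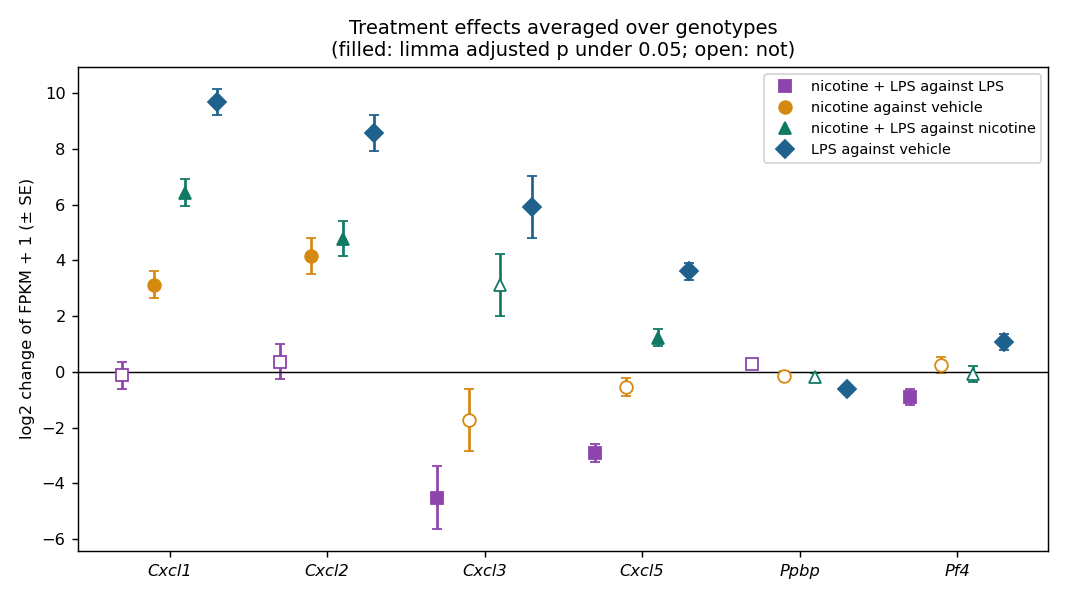
Log2 changes of FPKM + 1 averaged over genotypes, with SE, for the 4 treatment comparisons (colours and shapes), filled where the limma adjusted p was under 0.05. For nicotine with LPS against LPS the changes of Cxcl3 (-4.51) and Cxcl5 (-2.91) lie far below 0, and those of Cxcl1 (-0.12) and Cxcl2 (0.37) lie within 1 SE of it.

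Under LPS, nicotine lowered Cxcl3 and Cxcl5, while the changes of Cxcl1 and Cxcl2 did not pass the test. Cxcl3 was listed at 205 FPKM with nicotine and LPS and 990.1 FPKM with LPS in the knockout, and at 19.2 FPKM with nicotine and LPS and 2188 FPKM with LPS in wild type. That is 20.7% of the LPS level in the knockout and 0.876% in wild type, or 4.82 times and 114 times lower. Cxcl5 was listed at 3.36 FPKM with nicotine and LPS and 34.5 FPKM with LPS in the knockout (9.74%), and at 0.804 FPKM with nicotine and LPS and 11.5 FPKM with LPS in wild type (6.97%). For both genes the value with nicotine and LPS lay below the LPS value in each genotype and above the nicotine value.

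Averaged over genotypes, Cxcl3 fell by 4.51 ± 1.12 on the log2 scale (SE, limma adjusted p = 0.014) and Cxcl5 fell by 2.91 ± 0.31 (adjusted p = 0.000632). Pf4 was called lower as well, at -0.91 ± 0.29 (adjusted p = 0.0346). Of the 6 genes 3 were called lower and 0 higher, against 28.6% lower and 26.9% higher of all genes tested, and 55.6% of all genes were called here in either direction. The call of Cxcl5 held under all 17 alternatives, with a value of -1.88 at a pseudocount of 5. The call of Cxcl3 ended without the wild type library with nicotine and LPS (-3.83, adjusted p = 0.106), and its value was -2.20 without the wild type LPS library and -6.83 without the knockout LPS library, where it passed in both. The call of Pf4 ended without the wild type LPS library (-0.40, adjusted p = 0.127), the wild type library with nicotine and LPS (adjusted p = 0.142) or the knockout library with nicotine and LPS (adjusted p = 0.137). Its log2 change was -1.42 without the knockout LPS library and -0.55 with equal FPKM sums (adjusted p = 0.156). The call of Pf4 also ended with quantile scaling (-0.68, adjusted p = 0.110) and without a filter on low values (adjusted p = 0.0822).

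Cxcl1 was listed at 3662 FPKM with nicotine and LPS and 2583 FPKM with LPS in the knockout, and at 5238 FPKM with nicotine and LPS and 8755 FPKM with LPS in wild type. It was thus at 142% of the LPS level in the knockout and 59.8% in wild type, in opposite directions. Cxcl2 was listed at 9874 FPKM with nicotine and LPS and 6526 FPKM with LPS in the knockout (151%), and at 12251 FPKM with nicotine and LPS and 11139.8 FPKM with LPS in wild type (110.0%). The average log2 change was -0.12 ± 0.48 for Cxcl1 (limma adjusted p = 0.847) and 0.37 ± 0.63 for Cxcl2 (adjusted p = 0.646), so neither passed the test. That of Cxcl1 turned positive with quantile scaling (0.69) and with equal FPKM sums (0.24). Ppbp was at 0.28 ± 0.15 (adjusted p = 0.153) and, of the 17 alternatives, was called only with equal FPKM sums (0.55, adjusted p = 0.0171).

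The ratio of Cxcl2 to Cxcl3 shows how far these close paralogs, 89.7% identical in coding sequence and each with GGGAATTTCCC before the start, came apart. In FPKM it was 48.1 in the knockout and 639 in wild type with nicotine and LPS, 6.59 and 5.09 with LPS, 13.5 and 401 with nicotine, and 0.492 and 1.79 with vehicle. In both genotypes the ratio was higher in each library with nicotine than in either library without it. Cxcl3 made up 1.39% of the summed FPKM of the 6 genes in the knockout and 0.108% in wild type with nicotine and LPS, against 8.56% and 9.63% with LPS. Cxcl2 made up 67.0% in the knockout and 69.0% in wild type with nicotine and LPS, against 56.4% and 49.1% with LPS. The 6 genes together held 2.35% of all FPKM in the knockout and 2.70% in wild type with nicotine and LPS, 1.35% and 2.85% with LPS, 0.311% and 0.151% with nicotine, and 0.249% and 0.0546% with vehicle. Pf4 supplied 86.2% of the summed FPKM in the knockout and 89.8% in wild type with vehicle.

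**Figure D3:**
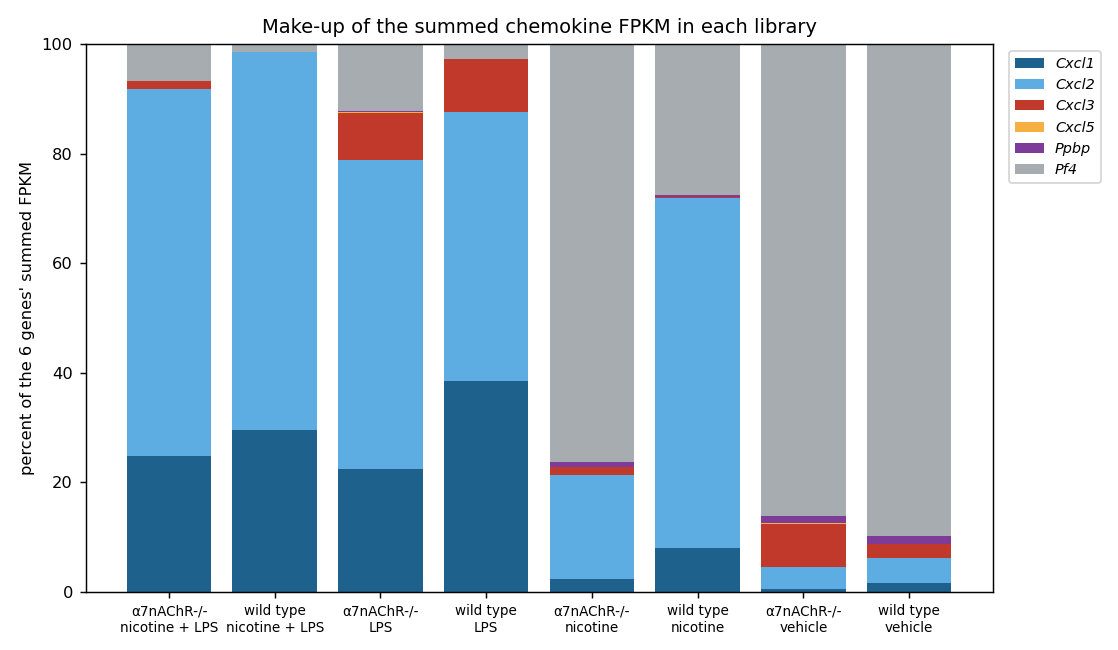
Make-up of the summed FPKM of the 6 genes in each library, as percent, with the knockout left of wild type in each treatment. Pf4 (grey) makes up most of both vehicle bars, Cxcl1 and Cxcl2 (blue) most of the 4 bars with LPS, and Cxcl3 (red) is 8.56% and 9.63% with LPS but 1.39% and 0.108% with nicotine and LPS.

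LPS given after nicotine raised Cxcl1, Cxcl2 and Cxcl5 against nicotine alone. Cxcl1 was listed at 3662 FPKM with nicotine and LPS and 38.9 FPKM with nicotine in the knockout, and at 5238 FPKM with nicotine and LPS and 63.5 FPKM with nicotine in wild type, ratios of 94.2 and 82.5. For Cxcl2 the ratios were 31.9 in the knockout and 24.0 in wild type, for Cxcl3 8.93 and 15.0, and for Cxcl5 11.9 and 7.36. The average log2 changes were 6.43 ± 0.48 for Cxcl1 (SE, limma adjusted p = 0.000934), 4.79 ± 0.63 for Cxcl2 (adjusted p = 0.00595) and 1.23 ± 0.31 for Cxcl5 (adjusted p = 0.045). Cxcl3 had a log2 change of 3.13 ± 1.12 and did not pass (adjusted p = 0.11), nor did Pf4 (-0.08, adjusted p = 0.881) or Ppbp (-0.19, adjusted p = 0.434). Of the 6 genes 3 were called higher and 0 lower, against 8.29% higher and 6.59% lower of all genes tested. The call of Cxcl1 held under all 17 alternatives. That of Cxcl2 ended without the wild type library with nicotine and LPS (adjusted p = 0.0565), the knockout nicotine library (0.0663) or the knockout library with nicotine and LPS (0.0541). That of Cxcl5 ended without any of 5 libraries (adjusted p of 0.0697 to 0.253), which were both vehicle libraries, both libraries with nicotine and LPS, and knockout nicotine. Its value was 0.66 without the knockout nicotine library, and with a pseudocount of 5 its value was 0.42 (adjusted p = 0.325), and with one of 0.1 it was 2.65 and called. The call of Cxcl5 also ended without a filter on low values (adjusted p = 0.110) and with a minimum mean of 5 FPKM (adjusted p = 0.0568). Cxcl3 passed without the wild type LPS or the knockout LPS library (adjusted p = 0.000542 and 0.000517).

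The LPS effect was smaller after nicotine than without it for Cxcl1, Cxcl2 and Cxcl5. The test of the difference itself gave -3.25 ± 0.68 on the log2 scale for Cxcl1 (SE, limma adjusted p = 0.0167), -3.79 ± 0.90 for Cxcl2 (adjusted p = 0.0244) and -2.38 ± 0.44 for Cxcl5 (adjusted p = 0.0121). In the libraries without LPS, Cxcl1 and Cxcl2 were higher with nicotine than with vehicle. Cxcl5 was at 1.70 FPKM or below in all 4 libraries without LPS and was lower with nicotine and LPS than with LPS. Cxcl3 had a difference of -2.79 ± 1.58 and did not pass (adjusted p = 0.217), except without the knockout LPS library (-5.10, adjusted p = 0.00199). Pf4 (-1.17 ± 0.41, adjusted p = 0.0722) and Ppbp (0.41 ± 0.21, adjusted p = 0.177) did not pass either. Pf4 passed with all pairwise interactions in the model (adjusted p = 0.0288) and without the knockout LPS library (-1.68, adjusted p = 0.00725), and Ppbp with equal FPKM sums (0.94, adjusted p = 0.0134). Of the 6 genes 3 were called lower and 0 higher, against 17.3% lower and 12.8% higher of all genes tested, and the members' median was -2.58, beside -0.11 for all genes. The call of Cxcl1 ended without any of the 4 libraries with nicotine (adjusted p of 0.063 to 0.0703) and that of Cxcl2 without any of 5 libraries (the same 4 and wild type LPS, adjusted p of 0.0562 to 0.0938). That of Cxcl5 ended without the wild type vehicle library (adjusted p = 0.0535) or the wild type library with nicotine and LPS (0.0587), and the value for Cxcl2 was -2.51 without the wild type vehicle library. The call of Cxcl2 also ended with quantile scaling (-2.72, adjusted p = 0.0852) and without a filter on low values (adjusted p = 0.0644), and that of Cxcl5 with a pseudocount of 0.1 (adjusted p = 0.0504).

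The difference between knockout and wild type in the nicotine effect passed the test for none of the 6 genes (limma adjusted p of 0.740 to 0.992). The difference was 2.09 ± 1.17 on the log2 scale for Cxcl3 (SE, adjusted p = 0.741), -1.12 ± 0.78 for Cxcl2 (adjusted p = 0.774) and -0.65 ± 0.29 for Cxcl5 (adjusted p = 0.740). Over all 10447 genes 0% were called in this comparison, and 634 genes had an unadjusted p under 0.05. Under LPS the values of Cxcl3 and Cxcl5 were lower with nicotine, and without LPS those of Cxcl1 and Cxcl2 were higher with nicotine, in the knockout libraries as in those of wild type.

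The platelet chemokines Ppbp and Pf4 were higher in the knockout in every treatment. Ppbp was listed at 11.1, 10.1, 13.2 and 14.1 FPKM in the knockout with nicotine and LPS, LPS, nicotine and vehicle, against 2.30, 1.43, 2.64 and 3.11 FPKM in wild type in the same order. Pf4 was listed at 984, 1420, 1246 and 951 FPKM in the knockout, against 249.9, 615, 220.2 and 202 FPKM in wild type. For both genes every knockout value lay above every wild type value. The ratio of knockout to wild type within a treatment was 4.53 to 7.05 for Ppbp and 2.31 to 5.66 for Pf4. Averaged over treatments, Ppbp was higher in the knockout by 1.97 ± 0.15 on the log2 scale (SE, limma adjusted p = 0.00371) and Pf4 by 1.98 ± 0.31 (adjusted p = 0.0406).

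Of the 6 genes 2 were called higher in the knockout and 0 lower, against 0.689% higher and 0.412% lower of all genes tested. The call of Ppbp held under all 17 alternatives, with a value of 1.21 at a pseudocount of 5. That of Pf4 ended without any single library except wild type LPS (adjusted p of 0.109 to 0.149), with a value between 1.70 and 2.12. It also ended with a pseudocount of 5 (adjusted p = 0.0534) and without a filter on low values (adjusted p = 0.104). The 14 platelet markers summed to 9.20 FPKM in the knockout and 25.9 FPKM in wild type with nicotine and LPS, 14.8 and 14.5 FPKM with LPS, 11.9 and 35.1 FPKM with nicotine, and 9.37 and 20.9 FPKM with vehicle. The knockout sum was thus lower except with LPS, and most of each wild type sum was Selp. Gp1bb was at 0 in all 4 knockout libraries and at 0 to 0.0582 FPKM in wild type. Selp, encoding P-selectin, was at 0.732 to 6.71 FPKM in the knockout and 11.7 to 21.6 FPKM in wild type. Gp1ba was lower in the knockout in each treatment (0.230 to 0.498 against 0.329 to 0.825 FPKM), as were Selp, Clec1b, Vwf and Itgb3. P2ry12 was higher in the knockout in each treatment (0.818 to 2.52 against 0.179 to 2.50 FPKM), with vehicle only just (2.52 against 2.50 FPKM). Gp6, a collagen receptor, was the only one of the 14 with every knockout value (0.533 to 4.40 FPKM) above every wild type value (0 to 0.0883 FPKM). Whether the difference came with the genotype or with the preparation cannot be told apart.

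In the additive fit no neutrophil attractant was called different between genotypes. Cxcl3 was higher in the knockout with vehicle (87.7 against 5.74 FPKM), with nicotine (23.0 against 1.28 FPKM) and with nicotine and LPS (205 against 19.2 FPKM), by 15.3-fold, 18.0-fold and 10.7-fold, and was lower with LPS (990.1 against 2188 FPKM). Its average log2 change of 2.33 ± 0.94 did not pass (limma adjusted p = 0.38), but was 3.55 (adjusted p = 0.00429) without the wild type LPS library. Cxcl5 was higher in each of the 4 knockout libraries than in the matched wild type library, by 2.58-fold to 15.9-fold, and did not pass (1.07 ± 0.51, adjusted p = 0.47), but was called with the 4 matched pairs as a block (adjusted p = 0.0373). Cxcl1 (-0.59, adjusted p = 0.822) and Cxcl2 (0.04, adjusted p = 0.989, and -0.035 with a pseudocount of 5) did not pass, and with LPS alone both were lower in the knockout, at 2583 against 8755 FPKM and 6526 against 11139.8 FPKM. The 4 genes with positive changes of 1.07 or more, Cxcl5, Ppbp, Pf4 and Cxcl3, lie next to each other at the start of the cluster, and Cxcl1 and Cxcl2 lie beyond Cxcl15 at its end. The bound of 1.07 is the value of Cxcl5 itself, so this grouping is a description. Cxcl5 and Cxcl3 did not pass, and grouping by position was not tested.

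**Figure D4:**
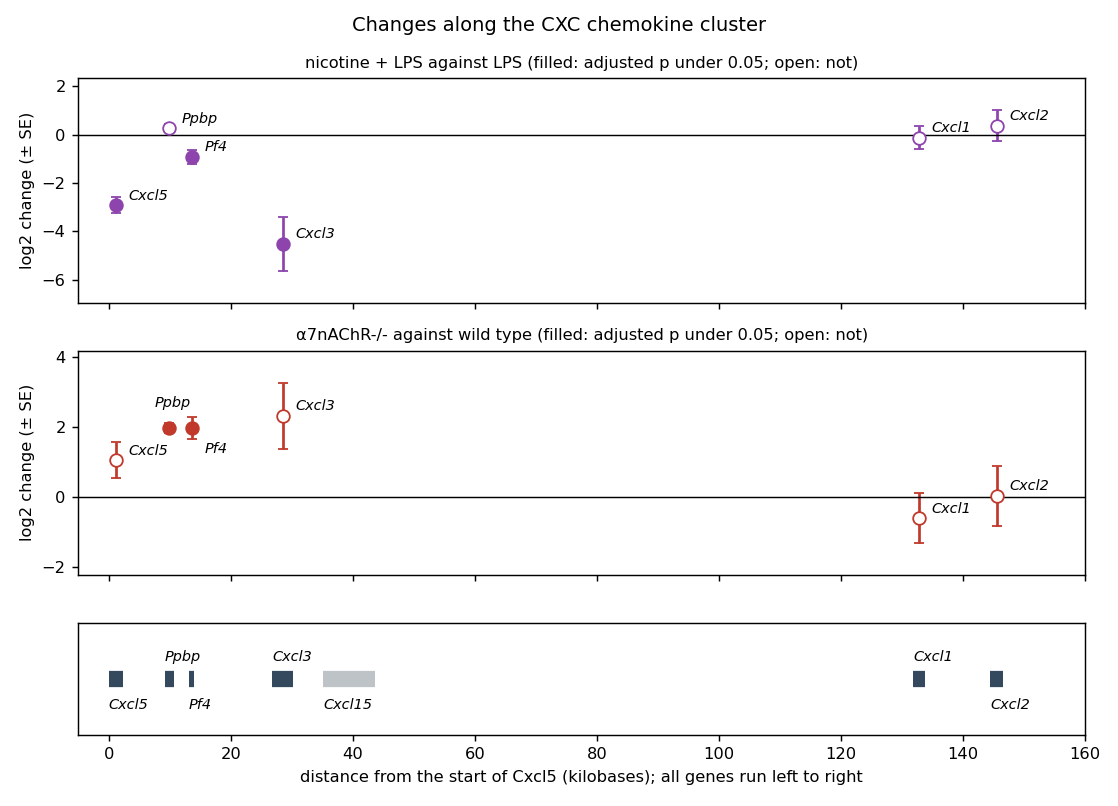
Log2 changes with SE of the 6 genes at their position in the cluster (kilobases from the start of Cxcl5), for nicotine with LPS against LPS (top) and knockout against wild type (middle), filled where the limma adjusted p was under 0.05, above a map of the genes drawn to scale (bottom). The 4 genes on the left lie above 0 for genotype (1.07 to 2.33) and Cxcl1 and Cxcl2 on the right near it (-0.59 and 0.04). For genotype only Ppbp and Pf4 were called, and grouping by position was not tested.

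Cxcl1 and Cxcl2 were each other's nearest gene in profile among the tested genes, with a root mean square difference of 0.902 between centred log2(FPKM + 1) values over the 8 libraries. Next came Ccl4, a chemokine for monocytes and T cells (1.09), and Tnf, encoding tumour necrosis factor (1.10), for Cxcl1, and Tnf (0.938) and the interferon-stimulated gene Isg15 (1.17) for Cxcl2. The nearest genes to Cxcl3 were Irf7, a transcription factor of the interferon response (0.726), Slc7a2, an arginine transporter (0.893), and Zbp1, a sensor of nucleic acids (0.904). Irf7 was listed at 195 FPKM in the knockout and 45.4 FPKM in wild type with nicotine and LPS, against 1388 and 909 FPKM with LPS. By the same measure Cxcl2 ranked 5217 and Cxcl1 6266 in likeness to Cxcl3. In the other direction, Cxcl3 ranked 355 in likeness to Cxcl1 and 1252 in likeness to Cxcl2. The measure is not scaled for the size of a gene's changes, so a rank depends on which gene it starts from. Cxcl5 was nearest to Lrrc8c, a subunit of volume-regulated anion channels (0.213), the integrin gene Itgb8 (0.233) and the RNA helicase gene Mov10 (0.330). Ppbp was nearest to Adgre4 (0.287), Clec4n (0.307) and Gstm2 (0.336), a macrophage surface receptor, a C-type lectin and a glutathione transferase. Pf4 was nearest to Stfa3, a cysteine protease inhibitor (0.232), Bst1 (0.283) and Layn, a hyaluronan receptor (0.308). These distances rest on 8 libraries that all genes share.

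Of the other CXC chemokines 7 of 9 were tested, and over all libraries LPS raised 3 (Cxcl10, Cxcl9 and Cxcl16) and lowered 0, against 15.8% higher and 11.3% lower of all genes, with a median log2 change of 1.27. Nicotine lowered 4 of the 7 and raised 0, against 22.2% lower and 24.1% higher of all genes, with a median of -1.28. Cxcl10, which attracts T cells, was listed at 861 FPKM with nicotine and LPS and 10567 FPKM with LPS in the knockout, and at 509 FPKM with nicotine and LPS and 7244 FPKM with LPS in wild type. Its average log2 change was -2.95 ± 0.47 with nicotine (SE, limma adjusted p = 0.00322) and 8.57 ± 0.47 with LPS (adjusted p = 0.000334). Cxcl14 had the lowest LPS change of the list (-0.66, adjusted p = 0.163) and Cxcl12 the highest nicotine change (0.18), and neither was called, although Cxcl14 was with equal FPKM sums (-1.23, adjusted p = 0.0477). Cxcl16 was lower with nicotine in all 4 matched pairs, by -1.28 ± 0.19 (adjusted p = 0.00255), and its LPS call (1.26) ended with quantile scaling (0.59) and equal FPKM sums (0.65). The LPS call of Cxcl9 (2.35, adjusted p = 0.0307) ended without either vehicle library, either LPS library or the knockout library with nicotine and LPS (adjusted p of 0.0553 to 0.0896). It also ended with a pseudocount of 5 (adjusted p = 0.0625), without a filter on low values (0.0623) and with matched pairs as a block (0.0630). By the same average effects 4 of the 6 chemokine genes were called higher with LPS and 0 lower, Ppbp being called lower with equal FPKM sums (-0.89, adjusted p = 0.0207). The call of Cxcl3 then ended without either vehicle library (adjusted p of 0.0531 and 0.0644), and that of Cxcl5 without either vehicle or either LPS library (0.0563 to 0.0701) and with a pseudocount of 5 (1.27, adjusted p = 0.0505), and its value was 3.84 with one of 0.1. With nicotine 0 were called higher and 2 lower, Cxcl3 (-3.12 ± 0.94, adjusted p = 0.0333) and Cxcl5 (-1.72 ± 0.51, adjusted p = 0.0307). Cxcl1 (1.51, adjusted p = 0.123) and Cxcl2 (2.26, adjusted p = 0.0657) did not pass, but both were called higher with quantile scaling (1.99 and 2.70, adjusted p = 0.0310 and 0.0208) and without the wild type LPS library (adjusted p = 0.0254 and 0.0323), and Cxcl2 also with equal FPKM sums (adjusted p = 0.0397). The nicotine call of Cxcl3 ended without wild type nicotine, knockout vehicle or either library with nicotine and LPS (adjusted p of 0.0698 to 0.0914), and without a filter on low values (0.0624), and its value was -1.90 without wild type LPS. That of Cxcl5 ended without knockout nicotine or any of the 4 libraries with LPS (adjusted p of 0.0627 to 0.0910). It also ended with a pseudocount of 5 (-1.02, adjusted p = 0.0641), without a filter on low values (0.0586) and with matched pairs as a block (0.0506).

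Of 8 CXC receptors 3 had a mean high enough to be tested. Cxcr2, through which the attractants act, was listed at 0 FPKM in 7 libraries and at 0.0233 FPKM in the eighth, knockout with vehicle, values at which a failed estimate cannot be told from a low level. LPS raised Cxcr5 (1.91 ± 0.28, limma adjusted p = 0.00654), a receptor known from B cells. Nicotine raised Cxcr4, the receptor of Cxcl12, by 3.05 ± 0.74 (adjusted p = 0.0152) and Cxcr6, the receptor of Cxcl16, by 1.22 ± 0.31 (adjusted p = 0.0171). Cxcr4 was listed at 119.75 FPKM with nicotine and LPS and 7.89 FPKM with LPS in the knockout, and at 280.2 FPKM with nicotine and LPS and 4.81 FPKM with LPS in wild type.

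Of 18 genes from Toll-like receptor 4 to NF-kB, all tested, LPS raised 11 and lowered 2, against 15.8% higher and 11.3% lower of all genes tested, with a median log2 change of 1.39, beside 0.02 for all genes. The largest rise was that of Nfkbiz, a nuclear NF-kB cofactor (4.67 ± 0.19, limma adjusted p = 0.000219), and the lowest change that of Irak4, a receptor-proximal kinase (-0.61 ± 0.15, adjusted p = 0.0286), whose call ended without either vehicle library, either LPS library or the knockout library with nicotine and LPS (0.0527 to 0.104), without a filter on low values (0.0569) and with matched pairs as a block (0.0618). Nicotine raised 3 and lowered 5, against 24.1% higher and 22.2% lower of all genes, so the share called is near the background, with a median of -0.19, beside -0.04 for all genes. Ly96, the co-receptor that holds LPS, rose by 1.82 ± 0.19 (adjusted p = 0.000857), and Irak3, an inhibitor of the pathway, had a change of -2.09 ± 0.36 (adjusted p = 0.00441). Under LPS, nicotine raised 2 and lowered 12 of the 18, against 26.9% higher and 28.6% lower of all genes. Of 12 genes that bear on the stability of chemokine mRNA, LPS raised 6, led by Zc3h12a, an RNase that cuts inflammatory mRNAs (3.24 ± 0.39, adjusted p = 0.0037), and lowered 0, against the same 15.8% and 11.3% of all genes. Nicotine raised 3 and lowered 1, Hnrnpd, a protein that binds AU-rich elements (-0.89 ± 0.18, adjusted p = 0.0077), against 24.1% higher and 22.2% lower of all genes, a share called that is no higher than the background. Zfp36l2, which promotes decay of such mRNAs, had the lowest LPS change (-1.21) and the highest nicotine change (1.63, adjusted p = 0.0511), neither called, although the nicotine change was called without wild type vehicle, wild type nicotine or knockout vehicle (adjusted p = 0.0368, 0.0319 and 0.0496).

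Of 12 other mediators of neutrophil recruitment 11 were tested. LPS raised 6 and lowered 1, against 15.8% higher and 11.3% lower of all genes tested, with a median log2 change of 3.84, from Il1b, encoding interleukin 1β (7.88 ± 1.06, limma adjusted p = 0.00493), to Lta4h, an enzyme of leukotriene B4 synthesis (-0.91 ± 0.18, adjusted p = 0.0162). Nicotine raised 0 and lowered 3, Il1b (-4.09 ± 1.06, adjusted p = 0.019), Alox5, the first enzyme of leukotriene synthesis (-1.39 ± 0.35, adjusted p = 0.0171), and S100a8, a calcium-binding protein (-0.88 ± 0.20, adjusted p = 0.0118), with a median of -0.38. For the lowered genes this is near the background of 22.2%, and 24.1% of all genes were called higher. The call of Lta4h ended without wild type vehicle, knockout vehicle or knockout LPS (adjusted p of 0.0549 to 0.0665), that of Alox5 without wild type nicotine, knockout vehicle or knockout LPS (0.0527 to 0.0539), and that of Il1b without knockout nicotine and LPS (0.0569). Il1b was listed at 1076 FPKM with nicotine and LPS and 17894 FPKM with LPS in the knockout, and at 63.2 FPKM with nicotine and LPS and 19504 FPKM with LPS in wild type. Tnf had the highest nicotine change (0.56) and was not called. It was listed at 2821 FPKM with nicotine and LPS and 4794 FPKM with LPS in the knockout, and at 3118 FPKM with nicotine and LPS and 4806 FPKM with LPS in wild type. Markers of neutrophils themselves summed to 170 FPKM in the knockout and 106 FPKM in wild type with nicotine and LPS, and to 325 and 204 FPKM with LPS. With nicotine the sums were 144 and 95.7 FPKM, and with vehicle 228 and 171 FPKM, so the knockout sum was higher in each treatment. Csf3r, Mmp9, Mmp8 and S100a8 carried nearly all of each sum, S100a9 was at 0 to 0.635 FPKM, and Ly6g had no line in the table. Mmp9 and S100a8 were higher in the knockout in each treatment, and Csf3r and Mmp8 were lower there except with LPS.

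**Figure D5:**
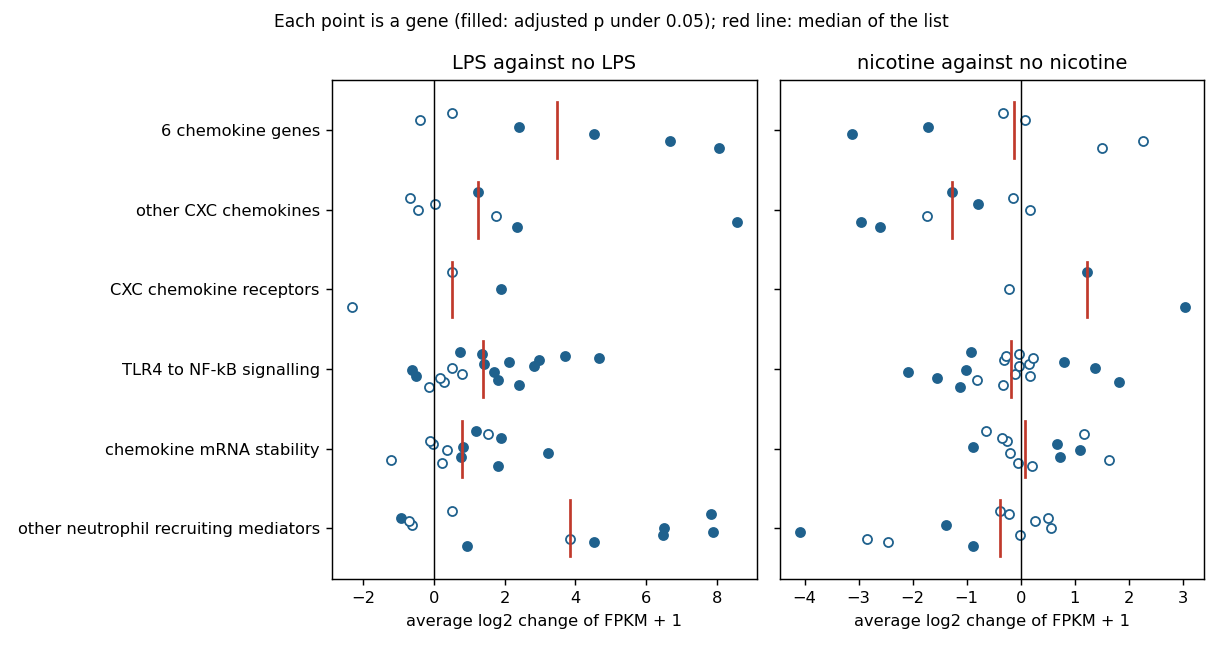
Average log2 changes of FPKM + 1 for LPS against no LPS (left) and nicotine against no nicotine (right), each point 1 tested gene of the list named at the left, filled where the limma adjusted p was under 0.05, with the median of the list as a red line. With LPS the 6 chemokine genes have a median of 3.47 and the other mediators of neutrophil recruitment one of 3.84, and with nicotine the other CXC chemokines have a median of -1.28.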

How the data were processed

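Poly(A) RNA of 8 libraries, 1 per group, was made into libraries with the TruSeq RNA kit v2, which does not mark strand, per the labels' protocols. The deposited table holds FPKM values made by the authors, 1 per gene and library. Tools named in the submitters' processing notes are HISAT2, Cufflinks, Cuffdiff and CASAVA 1.8, and the build named there is mm10. What annotation, filters or scaling between libraries they used is not given in the sources used here. Of 24341 lines, 2 repeated a symbol and were dropped in favour of the line with the higher mean, which left 24339 genes. Whole reads were not recovered, since at most 4.97% to 11.7% of 523 low genes shared a step between libraries, so no count test was used and counting error is unknown.

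The 10447 genes averaging 1 FPKM or more over the libraries, all 6 members among them, were tested on log2(FPKM + 1) with limma 3.58.1 in R 4.3.3, with a variance trend and Benjamini-Hochberg adjustment over all of them at 0.05. Average effects came from an additive model of genotype, nicotine and LPS with 4 residual degrees of freedom, and effects of 1 treatment with or without the other from genotype plus nicotine by LPS with 3. In the additive model any interaction, such as that of LPS by nicotine, counts as spread. In the second model the 2 genotypes stand in for repeats of a treatment, which they are not. Differences between genotypes came from all 3 pairwise interactions with 1 residual degree of freedom. The fits were tested on simulated data with independent noise and a change only in the term under test. Such a simulation cannot show how the fits behave where a real interaction enters the spread. Plain ratios of 2 libraries have no test.

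Promoter windows came from RefSeq (GRCm38.p6), and positions and transcripts from GENCODE M21. Transcripts and promoters were aligned with Biopython 1.88, and figures were drawn with Matplotlib 3.10.9 in Python 3.11.15. All members are named, and for each of 5 lists of other genes the tested gene with the largest and the smallest LPS and nicotine change, plus every called gene where there were 3 or fewer. The 3 genes most like each member were those with the smallest root mean square difference of centred profiles, without predicted and small RNA genes. Markers of 6 cell types were summed. The members and lists were chosen with earlier results of these data known. Alternatives were other pseudocounts (0.1 and 5), other filters, 3 scalings, no variance trend, other designs and each library left out in turn.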

Additional observations from a re-analysis of the deposited data

Results flagged for a closer look

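For 3 genes the LPS effect differed by the test of the difference itself between cells given nicotine and cells given vehicle. The difference in log2 change, with nicotine minus without, was -3.255 for Cxcl1, -3.793 for Cxcl2 and -2.376 for Cxcl5 (limma adjusted p = 0.0167, 0.0244 and 0.0121). The value lay below 0 in both genotypes for each of the 3. Of 17 alternatives, 4 ended the call of Cxcl1, 7 that of Cxcl2 and 3 that of Cxcl5. For Cxcl1 and Cxcl2 the change with nicotine under LPS did not pass (limma adjusted p = 0.847 and 0.646), and without LPS both were called higher with nicotine. Under LPS, the log2 ratio of nicotine to vehicle for Cxcl1 was 0.5031 in the knockout and -0.741 in wild type, so the genotypes lay on opposite sides of 0. After nicotine, the log2 ratio of LPS to vehicle for Pf4 was -0.3396 in the knockout and 0.1815 in wild type, again with opposite signs. Each of these last 4 values compares 1 library with 1 other, and the difference in sign was not tested.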

How the results depend on the processing

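Of 425 refits of the 25 called member values, 358 kept direction and call, 66 lost the call and 1 reversed, and of 499 refits of the 35 not called, 454 were the same, 18 became called and 27 reversed. Counts of called genes that moved were 5235 with equal FPKM sums and 1442 with matched pairs as a block for LPS on average (2824 reported), 55 without a filter and 798 with the block for genotype (115 reported), 1012 without a filter and 2429 with equal sums for LPS with nicotine (1554 reported), and 1 with a pseudocount of 0.1 for genotype by LPS (0 reported). Without 1 library the counts were 807 to 2331 for LPS on average, 13 to 172 for genotype, 1077 to 3698 for LPS by nicotine, 3700 to 5544 for nicotine with LPS, 3686 to 6470 for nicotine without LPS, 4096 to 5955 for LPS without nicotine and 338 to 2256 for LPS with nicotine, and the nicotine average stayed within 3631 to 4899 under all alternatives. A lone library left in an arm is assumed to vary like the others. The genotype interactions have no residual degrees of freedom without a library and were not refitted so. Equal FPKM sums shifted the median of all genes by -0.51 for LPS on average, -0.25 for LPS with nicotine, 0.26 for nicotine with LPS, -0.23 for nicotine without LPS and 0.46 for LPS by nicotine. The share of calls that were higher was then 16.3%, 24.5%, 67.6%, 36.8% and 85.1%, against 58.4%, 55.7%, 48.5%, 53.7% and 42.4% as reported, and 16.2% against 55.4% for LPS without nicotine. With quantile scaling it was 44.5% for LPS on average, 45.2% for LPS without nicotine and 55.4% for LPS by nicotine. Signs reversed with quantile scaling for Pf4 (LPS average -0.29, nicotine without LPS -0.19, LPS without nicotine -0.047), Ly96 (LPS average -0.20), Cxcl1 (nicotine with LPS 0.69) and Ppbp (genotype by LPS -0.21). They reversed with equal sums for Pf4 (LPS average -0.11, nicotine without LPS -0.045), Ly96 (LPS average -0.31), Cxcl1 (nicotine with LPS 0.24, genotype by nicotine 0.085) and Ppbp (genotype by nicotine 0.042, genotype by LPS -0.0043). With a pseudocount of 5 they reversed for Cxcl2 (genotype -0.035), Cxcl1 (genotype by nicotine 0.12) and Ppbp (genotype by LPS -0.058), and with 0.1 for Cxcl5 (genotype by LPS -0.24). Leaving out 1 library reversed uncalled nicotine averages, with ranges of -0.42 to 0.14 for Cxcl14, -0.18 to 1.00 for Tnf, -0.032 to 0.15 for Ppbp, -0.60 to 0.0097 for Pf4, -0.55 to 0.080 for Zc3h12a and -0.43 to 0.11 for Cxcr5. It did so for genotype in Cxcl2 (-0.92 to 0.72) and Cxcl1 (-1.30 to 0.11), for nicotine with LPS in Cxcl1 (-0.90 to 0.66) and Cxcl2 (-0.17 to 0.91), for nicotine without LPS in Cxcl5 (-1.11 to 0.037) and Pf4 (-0.091 to 0.60), and for LPS with nicotine in Pf4 (-0.43 to 0.27). Apart from left-out libraries and scalings, whose construction changes the samples or the scale, the cause was not tested. The matched pairs share both other factors, not a replicate number, since each group has 1 library. No depth was given, so the precision of low values is unknown.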
